A study of Mus musculus with 18 samples.

Results

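XEN cells on day 7 of hypoxia were compared with XEN cells in normoxia. The comparison took 4 of the 18 libraries of the study, 2 biological replicates per condition, and every gene whose TPM exceeded 0.4 in 2 or more of the 6 XEN libraries, which gave 10894 of the 11538 genes in the XEN table. At the edge of this limit, the second-highest TPM was 0.4009 for Npas1, the last gene kept, and 0.3999 for the first gene left out. XEN cells are stem cell lines of the extra-embryonic endoderm that model the primitive endoderm of the blastocyst, and they were compared to ask how this lineage responds when low oxygen lasts for days. Normoxic cells were kept at 20% oxygen and hypoxic cells at 2% oxygen, for 2 days (acute) or 7 days (prolonged). The labels give no difference in genotype between the groups, and the cells were grown on gelatin-coated plates, in medium that had partly been conditioned on mouse embryonic fibroblasts and then filtered. ESCs and TSCs went through the same conditions. The methods name 1 source of XEN cells, and whether the replicates came from separate cultures is not stated beyond the words biological replicate, so the p-values measure the spread between these libraries.

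Cells sense oxygen through prolyl hydroxylases (PHDs, encoded by Egln1, Egln2 and Egln3), which mark the α subunits of the hypoxia-inducible factors (HIFs) for destruction by VHL. When oxygen is short the α subunits persist, pair with ARNT and bind DNA at a short core motif to raise transcription of genes for glycolysis, glucose uptake, blood vessel growth and feedback, Egln3 among them. In the embryo the primitive endoderm gives rise to visceral endoderm, which absorbs and secretes nutrients, and to parietal endoderm, which lays down a thick basement membrane of laminin and type IV collagen.

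On day 7 of hypoxia, 12 genes were DE in XEN cells, all of them higher than in normoxia. They encode 2 chains of collagen VI (Col6a1 and Col6a2), a matrix protease (Mmp2), a myosin light chain (Myl9), secreted peptides (Adm and Cck), an oxygen sensor (Egln3), a lipoprotein receptor (Vldlr), a kinase (Nrk), a methyltransferase (Mettl7b), a transcriptional regulator (Tcim) and AI661453. Their fold changes ran from 4.44 for Nrk to 87.6 for Col6a1. DE genes had an adjusted p at or under 0.1 over all genes tested and a change over 1.5-fold, from limma on log2(TPM + 0.5), and they made up 0.11% of the genes tested. Col6a2 and Mmp2 exceeded the TPM limit in the day 7 libraries only, so they could enter the test only as higher. Not 1 gene passed in the lower direction, although 982 genes had an unadjusted p under 0.05 in limma. The count rested on single libraries: 4 of the 12 were DE without replicate 1 of day 7 (Col6a1, Col6a2, Egln3 and Myl9), Col6a1 alone without either replicate of day 2, which share in the estimate of spread, and 195 genes, 95 of them lower, without replicate 2 of normoxia. In bulk RNA, fewer or more cells of a type and less or more RNA per cell cannot be told apart.

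The libraries held between 35592641 and 75204029 reads recovered from the TPM. The normoxic libraries held 43683121 and 72029024, those of day 7 50419376 and 35592641. The 20 most abundant genes took 12.2% to 16.3% of the reads. Replicates lay far apart: over all genes tested, the Euclidean distance in log2(TPM + 0.5) was 50.2 between the normoxic libraries and 47.8 between the day 7 libraries. Replicate 2 of normoxia lay closer to replicate 2 of day 7 (39.1) than to its own replicate. All 13 XEN markers were among the genes tested and 0 were DE. Gata6, which specifies primitive endoderm, stood at 155 and 244 TPM in normoxia and 171 and 216 on day 7, and Sox17 at 1289 and 1009 against 1325 and 1022. The labelled cell type thus had its defining markers in both conditions, with a median log2 fold change of -0.02 over the list.

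Promoter stretches are shown for genes that the result turns on, since the DE genes moved in one direction. They come from the 250 bases before the transcription start in RefSeq (GRCm38.p6), 5′ to 3′ on the strand of the gene, cut to end before the gene in GENCODE M21. For Col6a1 and Myl9 this cut left out the bases next to the RefSeq start. They lie at chr10:76726169-76726294 (minus strand) for Col6a1, chr7:110627407-110627656 (plus) for Adm, chr12:54203875-54204124 (minus) for Egln3 and chr2:156775214-156775419 (plus) for Myl9. Capitals mark the HIF core motif ACGTG or GCGTG on either strand (so CACGT or CACGC when read on this strand) in Adm and Egln3, and in Myl9 a CArG box, the motif of serum response factor.
Col6a1: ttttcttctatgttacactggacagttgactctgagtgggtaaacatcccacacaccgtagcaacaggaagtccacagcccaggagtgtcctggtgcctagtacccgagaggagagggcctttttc
Adm: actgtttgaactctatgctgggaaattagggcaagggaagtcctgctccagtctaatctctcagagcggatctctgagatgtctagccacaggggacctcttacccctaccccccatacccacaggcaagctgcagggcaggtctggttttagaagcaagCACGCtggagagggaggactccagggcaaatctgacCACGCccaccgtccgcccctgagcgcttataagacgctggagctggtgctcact
Egln3: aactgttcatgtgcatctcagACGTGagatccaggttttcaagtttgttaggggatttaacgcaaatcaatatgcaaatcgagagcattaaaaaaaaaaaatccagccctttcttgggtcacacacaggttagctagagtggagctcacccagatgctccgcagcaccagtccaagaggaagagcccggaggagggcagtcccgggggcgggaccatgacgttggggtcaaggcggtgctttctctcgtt
Myl9: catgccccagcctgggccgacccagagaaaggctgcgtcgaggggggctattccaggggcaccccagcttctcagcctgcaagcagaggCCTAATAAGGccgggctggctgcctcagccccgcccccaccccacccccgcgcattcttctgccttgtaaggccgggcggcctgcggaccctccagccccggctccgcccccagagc
Adm held the core motif 90 and 54 bases before its start and Egln3 held it 229 bases before. Of the 12 DE genes, 10 matched a RefSeq window, and in 6 of these 10 the 250 bases before the start held the core motif in at least 1 window. Counted by window, since a gene can have several, it was in 6 of 12 windows of DE genes (50%), against 57.1% of 11193 windows of the genes tested and 38.6% of all 32851. By this count the share in windows of DE genes was no higher than in windows of all genes tested. By gene it was 60%, and no such share was computed for the genes tested. A CArG box was found in the window of 1 DE gene, Myl9, 161 bases before its start, and in 1.22% of the windows of genes tested. No core motif or CArG box was found in the whole 250-base window of Col6a1. These matches are letters in a window and were not tested for binding.

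Col6a1 had the largest change in the comparison. It encodes the α1 chain of collagen VI, a collagen of the interstitial matrix that forms beaded filaments near basement membranes. Its TPM was 0.142 and 0.108 in normoxia, 0.989 and 1.17 on day 2, then 74.0 and 39.7 on day 7. Both day 7 libraries were thus far above all others, and the log2 fold change was 6.45 ± 0.31 (SE, n = 2 per group, adjusted p = 0.00214). The normoxic level rested on 8 and 10 reads, so the size of the ratio is loosely known. Col6a1 was DE with each library left out in turn and in the fit to the 4 libraries alone.

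Col6a2, the α2 chain, followed the same pattern at a lower level. It stood at 0 and 0.0541 TPM in normoxia, 0.205 and 0.203 on day 2 against 16.3 and 6.28 on day 7, with a log2 fold change of 4.34 ± 0.41 (adjusted p = 0.0366). The normoxic libraries held 0 and 8 reads of it. Col6a1 and Col6a2 are neighbours on chromosome 10 with 85161 bases between them, on the same strand. On TPM recomputed with exon length, which allows genes to be compared, the mean on day 7 was 69.6 for Col6a1 and 11.7 for Col6a2. Collagen VI is built from chains of both kinds and another, Col6a3, which was not analysed here. Cspg4, a proteoglycan that binds collagen VI, was below the limit for testing, at 0.177 and 0.346 TPM in normoxia and 0.274 and 0.528 on day 7.

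Mmp2 encodes gelatinase A, which cleaves basement membrane collagen. It had 0.0943 and 0.310 TPM in normoxia, 0.161 and 0.149 on day 2, then 18.5 and 5.70 on day 7. The day 7 libraries lay above the rest but differed from each other more than 3-fold, and the log2 fold change was 3.97 ± 0.50 (adjusted p = 0.0959), the weakest of the 12 calls. Mmp14, the membrane protease that activates it, had 75.9 and 58.6 TPM in normoxia and 63.1 and 69.8 on day 7, and these overlapped. Timp2, an inhibitor that also takes part in the activation, was higher in both day 7 libraries (65.0 and 63.0 against 26.5 and 45.8) but was not DE (adjusted p = 0.416).

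Myl9 encodes the regulatory light chain of smooth muscle and non-muscle myosin II. It stood at 0.296 and 0.211 TPM in normoxia, 4.50 and 3.78 on day 2 against 35.6 and 10.2 on day 7. The levels climbed in order with no overlap, and day 7 against normoxia gave a log2 fold change of 4.71 ± 0.52 (adjusted p = 0.04997). Myl6, a ubiquitous light chain gene, was more abundant and had 1119 and 1229 TPM in normoxia and 1577 and 1548 on day 7, with a log2 fold change of 0.41 (adjusted p = 0.501). Myl7, a paralog of Myl9, had 1.15 and 0.351 TPM in normoxia and 7.42 and 5.01 on day 7 and missed the threshold (adjusted p = 0.116). The normoxic libraries held 8 and 4 reads of Myl7 and 6 and 7 of Myl9.

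Adm encodes adrenomedullin, a vasodilating peptide and a known HIF target. It had 0.285 and 0.872 TPM in normoxia, 0.884 and 0.722 on day 2, then 17.2 and 18.8 on day 7. The day 2 and normoxic libraries lay together and the day 7 libraries apart from them (log2 fold change 4.16 ± 0.30, adjusted p = 0.0119). The adrenomedullin receptor Calcrl stood at 0.409 and 0.326 TPM in normoxia and 0.509 and 0.129 on day 7, and its partner Ramp2 at 24.7 and 43.5 against 23.6 and 35.6. Neither was separated between the conditions.

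Egln3 encodes PHD3. It was the most abundant of the 12 genes on day 7 on the exon-length scale, with a mean of 275 TPM against 37.8 in normoxia. The deposited TPM was 11.8 and 14.4 in normoxia, 21.2 and 23.1 on day 2 against 80.6 and 110.2 on day 7. The 3 conditions did not overlap, and the log2 fold change on day 7 was 2.81 ± 0.20 (adjusted p = 0.0119). Its paralogs did not pass: Egln1 had 63.8 and 67.6 TPM in normoxia and 65.4 and 109 on day 7, and Egln2 had 96.6 and 91.5 against 71.0 and 90.4.

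Cck encodes cholecystokinin, a peptide hormone of gut and brain. Its TPM was 0.420 and 1.41 in normoxia, 3.9999 and 2.16 on day 2, then 17.9 and 19.99 on day 7. All day 7 values exceeded all others, with a log2 fold change of 3.87 ± 0.40 (adjusted p = 0.0378). Vldlr, a receptor for lipoproteins and reelin, rose from 0.228 and 0.279 TPM in normoxia to 2.72 and 3.15 on day 7, with 0.784 and 0.650 on day 2, by 2.19 ± 0.21 on the log2 scale (adjusted p = 0.0366).

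Among the remaining DE genes, Nrk, an X-linked kinase known from placental development, had 7.21 and 4.79 TPM in normoxia, 22.4 and 21.3 on day 2 against 26.8 and 28.9 on day 7, a log2 fold change of 2.15 ± 0.22 (adjusted p = 0.0370). Mettl7b had 2.16 and 1.87 TPM in normoxia, 9.99 and 14.7 on day 2, then 12.5 and 13.1 on day 7, a log2 fold change of 2.41 ± 0.23 (adjusted p = 0.0366). For Mettl7b the day 2 and day 7 libraries overlapped, while those of normoxia lay below. Tcim rose from 0.854 and 1.15 TPM to 6.61 and 5.74 (2.16 ± 0.21 on the log2 scale, adjusted p = 0.0366). AI661453 rose from 2.17 and 3.17 TPM to 18.1 and 12.7 (2.32 ± 0.26, adjusted p = 0.0535). Tcim had 2.33 and 2.16 TPM on day 2 and AI661453 had 5.998 and 7.18, between the other conditions.

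**Figure D1:**
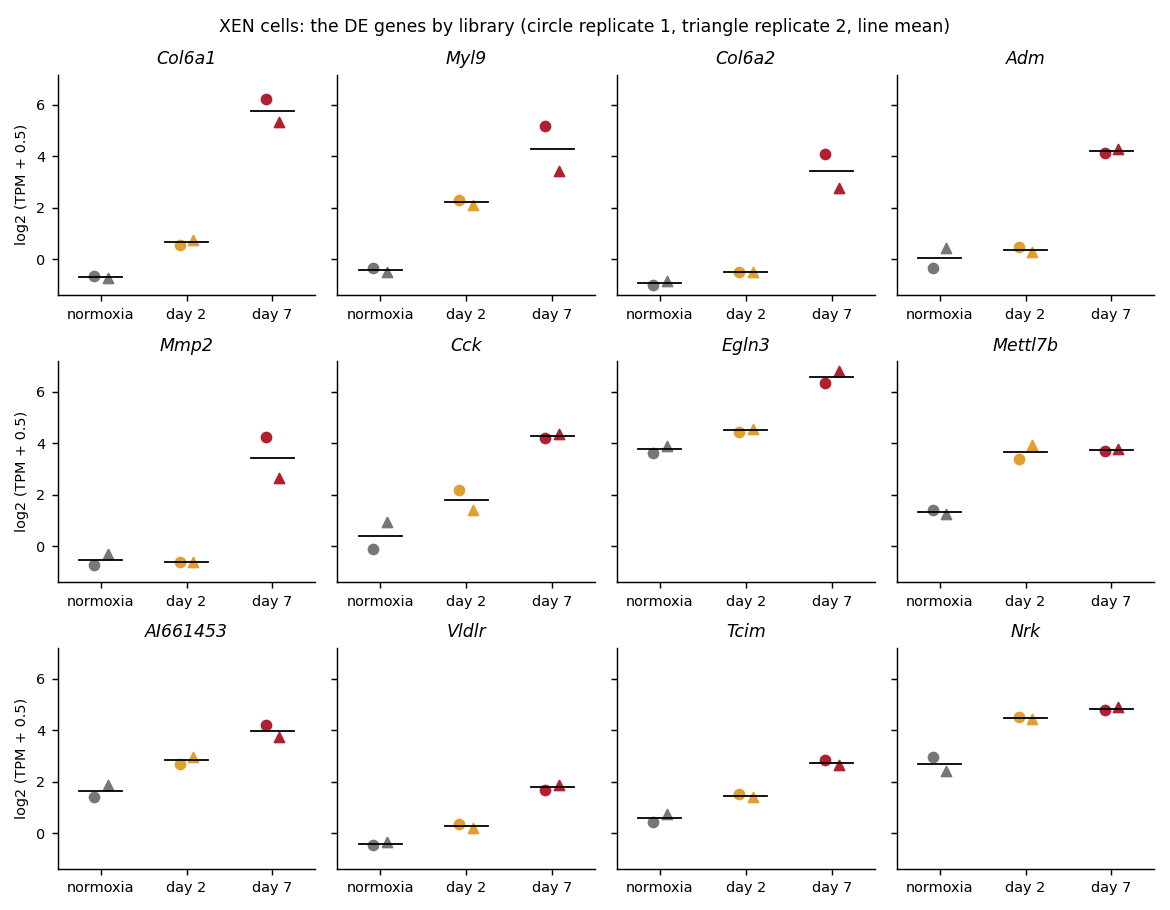
Expression of the 12 DE genes in each XEN library, as log2(TPM + 0.5), in normoxia, on day 2 and on day 7 of hypoxia (circle, replicate 1; triangle, replicate 2; line, mean of both). Col6a2, Adm and Mmp2 lie near the normoxic level on day 2 and far above it on day 7, Col6a1 lies above it on day 2 and further above on day 7, and Mettl7b and Nrk lie near their day 7 level by day 2; the replicates of Myl9 and Mmp2 are wide apart on day 7.

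The test passed few genes, and the conditions were also compared by whether their libraries were apart. Both day 7 libraries lay above both normoxic libraries with a change over 1.5-fold for 592 genes (5.43% of those tested), and below for 305 genes (2.8%). These shares carry no test, since an exact permutation test of 2 against 2 libraries cannot go below p = 0.333. Replicates weighed unequally on them: among the 592 genes, 198 were over 1.5 times higher in replicate 1 than in replicate 2 of day 7 and 50 the other way, and among the 305, 116 were over 1.5 times higher in replicate 1 than in replicate 2 of normoxia and 8 the other way. Over all genes tested, the log2 fold change had a median of -0.03.

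**Figure D2:**
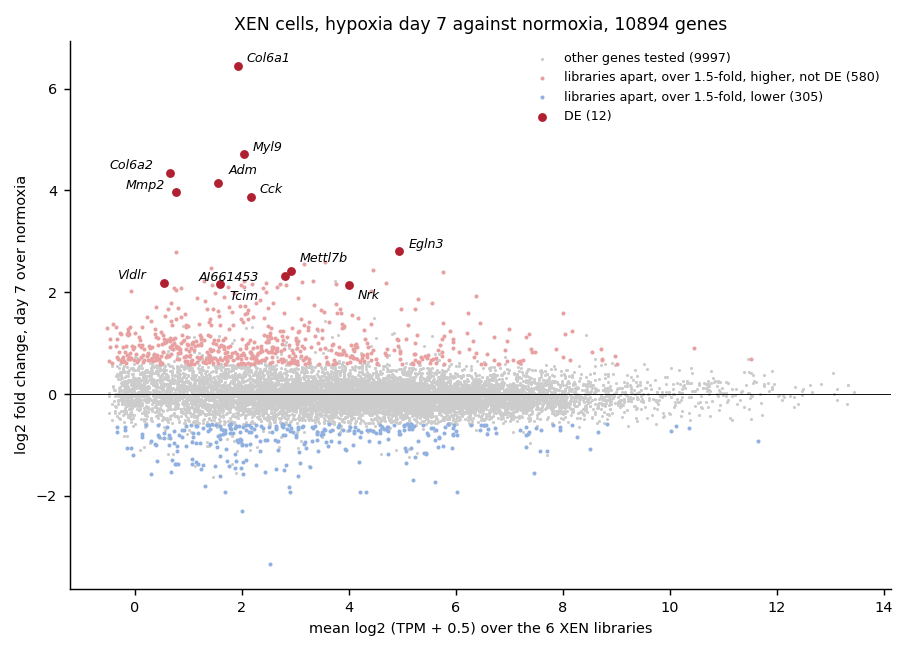
Log2 fold change of day 7 over normoxia against the mean log2(TPM + 0.5) over the 6 XEN libraries, 1 point per gene, with the 12 DE genes named, the other genes whose libraries were apart and over 1.5-fold in colour and the rest in grey. All 12 DE genes lie above 0, and Egln3 has the highest mean level of them.

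Beyond the DE genes, the largest increases among genes with libraries apart were those of Pou3f1, Fkbp10 and Slc16a3. Slc16a3, which exports lactate, had 3.48 and 1.49 TPM in normoxia, 15.0 and 14.7 on day 2 against 13.7 and 18.8 on day 7, just outside the threshold (adjusted p = 0.103). F2 and Otud1 were the nearest outside it (adjusted p = 0.10005 for each), against 0.0959 for Mmp2 inside. Fkbp10, a chaperone of procollagen, had 4.29 and 7.51 TPM in normoxia and 86.1 and 15.5 on day 7, so replicate 1 set the size of its change. Cd248 (endosialin), a surface glycoprotein of stromal cells, had 17.5 and 25.3 TPM in normoxia, 59.1 and 67.3 on day 2, then 156 and 82.3 on day 7 (adjusted p = 0.103).

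The 10 largest decreases in value among genes with libraries apart and an unadjusted p under 0.05 were not DE. Spry1, an inhibitor of receptor tyrosine kinase signalling, had 31.7 and 7.73 TPM in normoxia, 9.36 and 4.69 on day 2 against 0.627 and 1.81 on day 7, a log2 fold change of -3.33 ± 0.68 (adjusted p = 0.227). Its normoxic replicates differed by more than the step from replicate 2 to day 2. Chchd10, a protein of the mitochondrial intermembrane space, had 14.9 and 8.61 TPM in normoxia, 3.10 and 0.928 on day 2, then 2.699 and 1.33 on day 7 (-2.29, adjusted p = 0.278). Gldc, Efnb1, Enpp5 and Tcf23 followed, with log2 fold changes of -1.93, -1.93, -1.93 and -1.92 (adjusted p = 0.219, 0.496, 0.224 and 0.224). Utf1, a chromatin-bound factor of pluripotent cells, differed in course, with 8.85 and 8.54 TPM in normoxia, 16.2 and 16.2 on day 2 against 1.20 and 3.48 on day 7 (-1.82, adjusted p = 0.230). Lhx1, a homeobox factor, had 3.23 and 5.38 TPM in normoxia and 0.658 and 1.06 on day 7 (-1.80, adjusted p = 0.141). Rbm38, an RNA-binding protein, had 77.7 and 48.7 TPM against 16.1 and 21.99 (-1.68, adjusted p = 0.148).

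Genes were also read by lists of known roles, each described by how many of its tested members were DE, how many had libraries apart and over 1.5-fold, and the median log2 fold change, beside -0.03 for all genes. The range in brackets after a median is that with each of the 4 libraries of normoxia and day 7 left out in turn, and in 7 of the 22 lists with 5 or more genes tested it crossed 0. For some lists the count of members higher at any size is also given, to be read beside 4913 of the 10894 genes tested (45.1%). The other counts are to be read beside shares of 0.11% for DE, 5.43% for apart and higher and 2.8% for apart and lower. With so few DE genes, a list with 0 of them does not differ visibly from the background. No list was tested against these shares. In oxygen sensing, 1 of 10 tested genes was DE, Egln3. Hif1a, the α subunit of HIF1, was lower in value on day 7, at 50.4 and 73.9 TPM against 103 and 85.0 in normoxia and 156 and 91.5 on day 2 (log2 fold change -0.61, adjusted p = 0.601). Epas1, the α subunit of HIF2, had 300 and 347 TPM in normoxia and 316 and 260 on day 7, and Arnt 14.1 and 16.1 against 15.8 and 15.2, all overlapping. Vhl had 48.8 and 51.8 TPM in normoxia and 62.8 and 52.8 on day 7 (adjusted p = 0.840). Cited2, which competes with HIF for its coactivator, had 5026 and 1717 TPM on day 7, on either side of 2949 and 2906 in normoxia.

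In glycolysis with glucose and lactate transport, 0 of 23 genes were DE, 6 had libraries apart in the higher direction and 0 in the lower, and 16 were higher at any size, with a median of 0.30 (0.14 to 0.59). On day 2 the median was 0.47 against the same normoxic libraries. The day 7 replicates were unequal, with a median of 0.19 for replicate 1 and 0.59 for replicate 2 over normoxia. Pdk1, the kinase that holds pyruvate out of the mitochondrion, had 1.56 and 2.16 TPM in normoxia, 2.54 and 4.33 on day 2, then 7.504 and 13.1 on day 7 (log2 fold change 2.15, adjusted p = 0.141). Slc2a1, the glucose transporter GLUT1, had 89.5 and 105 TPM in normoxia, 174 and 208 on day 2 against 179 and 247 on day 7 (1.11, adjusted p = 0.201). Among 36 other hypoxia-responsive genes, Adm alone was DE, 10 had libraries apart and higher and 0 lower, and the median was 0.29 (0.21 to 0.27). Bnip3, a mitophagy receptor, had 21.1 and 9.14 TPM in normoxia and 42.4 and 49.3 on day 7, with 40.2 and 50.7 on day 2 (adjusted p = 0.270). Of 73 nuclear subunits of oxidative phosphorylation, 0 were DE, 0 had libraries apart and over 1.5-fold, and 18 were higher at any size, with a median of -0.16 (-0.24 to -0.10) on day 7 and -0.33 on day 2. It was -0.10 without replicate 1 of day 7 and -0.24 without replicate 2.

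The extracellular matrix was read in several lists. Of 12 interstitial matrix genes, 2 were DE (Col6a1 and Col6a2) and 5 had libraries apart and higher, with a median of 0.31 (0.21 to 0.56). Col6a2 and Fbln1, both among the 5, passed the TPM limit only through day 7, so they could enter only as higher. The median was 0.21 without replicate 1 of day 7 and 0.56 without replicate 2. Fn1 (fibronectin) had 4.21 and 3.69 TPM in normoxia, 3.94 and 3.15 on day 2, then 27.0 and 13.5 on day 7 (log2 fold change 2.14, adjusted p = 0.126). Of 14 basement membrane genes, 0 were DE, 4 had libraries apart and higher, and 13 were higher at any size, with a median of 0.44 (0.20 to 0.66), lowest without replicate 1 of normoxia and highest without replicate 2. Lama1 and Col4a1, the abundant chains of this membrane in endoderm, had log2 fold changes of 0.45 and 0.43 (adjusted p = 0.617 and 0.628). Nid1 (nidogen), which links laminin to collagen IV, had 104 and 258 TPM in normoxia and 275 and 338 on day 7, and 254 and 250 on day 2. For 20 genes of collagen processing 0 were DE, 4 had libraries apart and higher, and the median was 0.15 (0.10 to 0.28), lowest and highest without the same libraries. P3h3, a collagen prolyl hydroxylase family member, had 0.665 and 0.588 TPM in normoxia, 0.367 and 0.386 on day 2 against 4.15 and 1.77 on day 7 (adjusted p = 0.288).

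Among 16 matrix proteases and inhibitors, Mmp2 was DE, and it passed the TPM limit only through day 7. In this list 6 had libraries apart and higher and 1 lower, with a median of 0.33 (0.18 to 0.48), lowest without replicate 1 of day 7. Mmp15 had 41.6 and 22.1 TPM in normoxia and 17.9 and 18.3 on day 7 (adjusted p = 0.531). Of 23 smooth muscle and contractile genes, Myl9 was DE, 8 had libraries apart and higher and 0 lower, and 18 were higher at any size, with a median of 0.41 (0.35 to 0.47) on day 7 and 0.57 on day 2. Tpm2 (β-tropomyosin) had 3.30 and 1.498 TPM in normoxia and 20.6 and 6.78 on day 7, and Cnn1 (calponin) 1.77 and 1.34 against 4.63 and 5.75. Neither was DE (adjusted p = 0.321 and 0.154). In 22 cadherins and mesenchymal or epithelial regulators, 0 were DE, 0 had libraries apart and over 1.5-fold, and the median was -0.04 (-0.27 to 0.23), negative without replicate 2 of normoxia and positive without replicate 1.

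**Figure D3:**
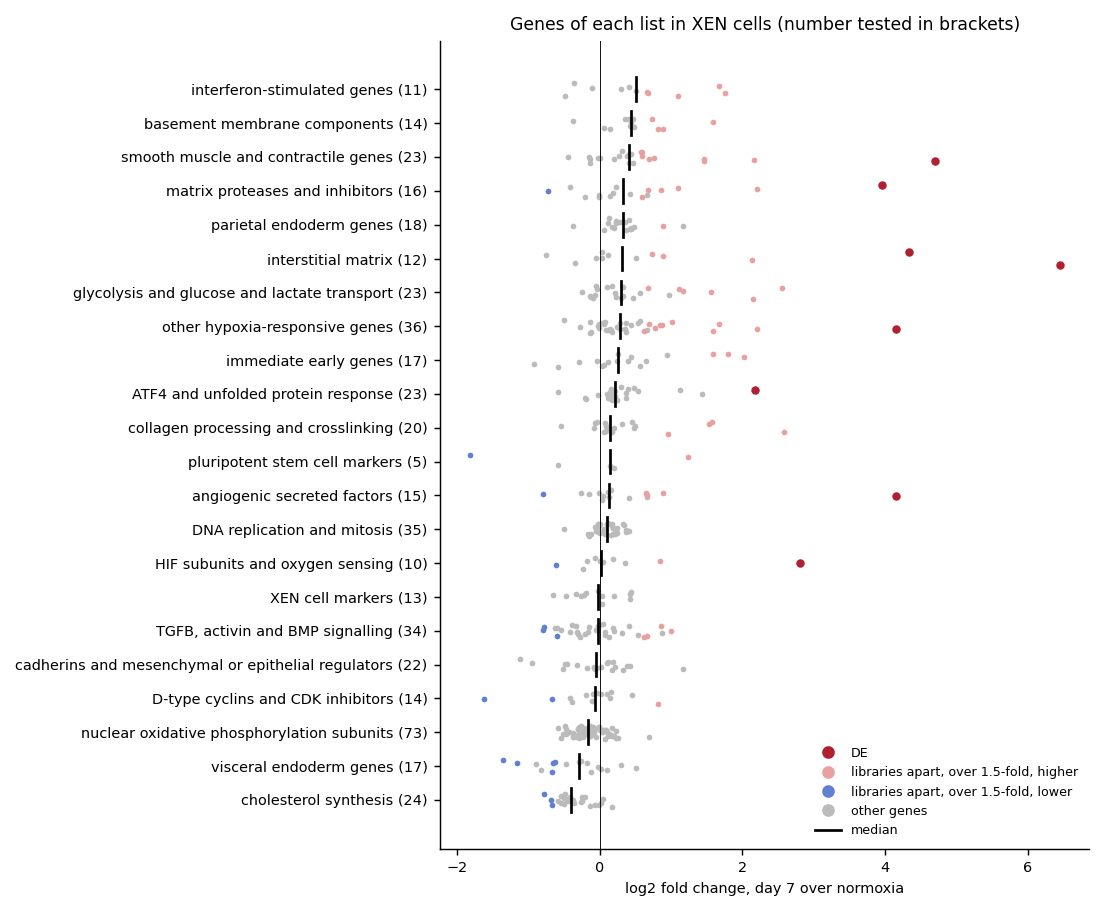
Log2 fold change of day 7 over normoxia for the tested genes of each of the 22 lists with 5 or more, ordered by the median (black bar), with DE genes in dark red and other genes with libraries apart and over 1.5-fold in pale red (higher) or blue (lower). Medians run from -0.39 for cholesterol synthesis to 0.51 for interferon-stimulated genes, and the 2 dark red points of the interstitial matrix are Col6a1 and Col6a2.

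The 2 derivatives of primitive endoderm differed in value. Of 17 visceral endoderm genes, 0 were DE, 5 had libraries apart and lower and 0 higher, and 4 were higher at any size, with a median of -0.29 (-0.65 to -0.14), and on day 2 of -0.70. It was nearest 0 without replicate 1 of normoxia and lowest without replicate 2. Ihh, a hedgehog ligand of the visceral endoderm, had 80.1 and 59.4 TPM in normoxia, 20.4 and 17.9 on day 2 against 24.7 and 28.8 on day 7 (log2 fold change -1.35 ± 0.20, adjusted p = 0.116). Hhex, a homeobox gene of its anterior part, had 63.6 and 62.0 TPM in normoxia, 51.0 and 34.8 on day 2, then 22.6 and 34.1 on day 7 (-1.16, adjusted p = 0.278). Apom, Cubn and Mttp were the other members with libraries apart and over 1.5-fold, and Cubn (cubilin) had 41.9 and 56.3 TPM in normoxia against 23.5 and 40.02 on day 7 (adjusted p = 0.551). Among the members that overlapped was Afp, with 1.61 and 0.290 TPM in normoxia and 1.24 and 0.169 on day 7, and Lrp2 (megalin), with 30.7 and 48.5 against 37.3 and 81.7. Of 18 parietal endoderm genes, 0 were DE, Nid1 alone had libraries apart and over 1.5-fold, and 17 were higher at any size, with a median of 0.32. This median was 0.17 without replicate 1 of normoxia and 0.59 without replicate 2. Several genes stand on both the parietal endoderm and basement membrane lists, which are therefore not independent.

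In the remaining lists no gene was DE except Vldlr, among 23 genes of ATF4 and the unfolded protein response, and Adm, among 15 angiogenic secreted factors. The median of the ATF4 list was 0.21, and it was -0.09 without replicate 1 of day 7 and 0.46 without replicate 2. That of the angiogenic list was 0.13, and it was -0.05 and 0.37 without the same libraries, so the sign of both turned on 1 library. Of 24 cholesterol synthesis genes, 3 were higher at any size and 3 had libraries apart and lower, with a median of -0.39 (-0.44 to -0.30) on day 7 against -0.01 on day 2. Sqle, the squalene epoxidase, had 42.9 and 34.4 TPM in normoxia, 50.3 and 45.4 on day 2 against 19.1 and 30.01 on day 7 (adjusted p = 0.502). Of 11 interferon-stimulated genes, 5 had libraries apart and higher, with a median of 0.51 on day 7 and -0.19 on day 2. Usp18, among the 5, passed the TPM limit only through day 7, so it could enter only as higher. Bst2 (tetherin) had 7.89 and 15.9 TPM in normoxia, 5.31 and 4.50 on day 2, then 65.9 and 23.4 on day 7 (adjusted p = 0.404). That median was 0.25 without replicate 1 of normoxia and 0.73 without replicate 2. The 17 immediate early genes had a median of 0.26, which was 0.06 without replicate 2 of day 7 and 0.76 without replicate 1. Klf2, one of them, had 9.63 and 21.5 TPM in normoxia, 11.8 and 8.77 on day 2 against 61.3 and 59.4 on day 7 (adjusted p = 0.180).

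In the cell cycle, 35 genes of DNA replication and mitosis had a median of 0.10 (0.03 to 0.17), lowest without replicate 1 of normoxia, with 0 DE and 0 apart and over 1.5-fold. Among 14 D-type cyclins and CDK inhibitors, Ccnd1 had 10.4 and 19.5 TPM in normoxia and 2.998 and 6.06 on day 7, and Ccnd2 had 295 and 245 against 512 and 442 (adjusted p = 0.321 and 0.288). The 34 genes of TGFB, activin and BMP signalling had 4 members apart and higher and 3 lower, with a median of -0.03 (-0.19 to 0.06), positive without replicate 1 of normoxia and lowest without replicate 2. Ltbp3, which tethers latent TGFB to the matrix, had 3.06 and 3.71 TPM in normoxia, 1.85 and 2.48 on day 2, then 11.2 and 4.66 on day 7 (adjusted p = 0.520).

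**Figure D4:**
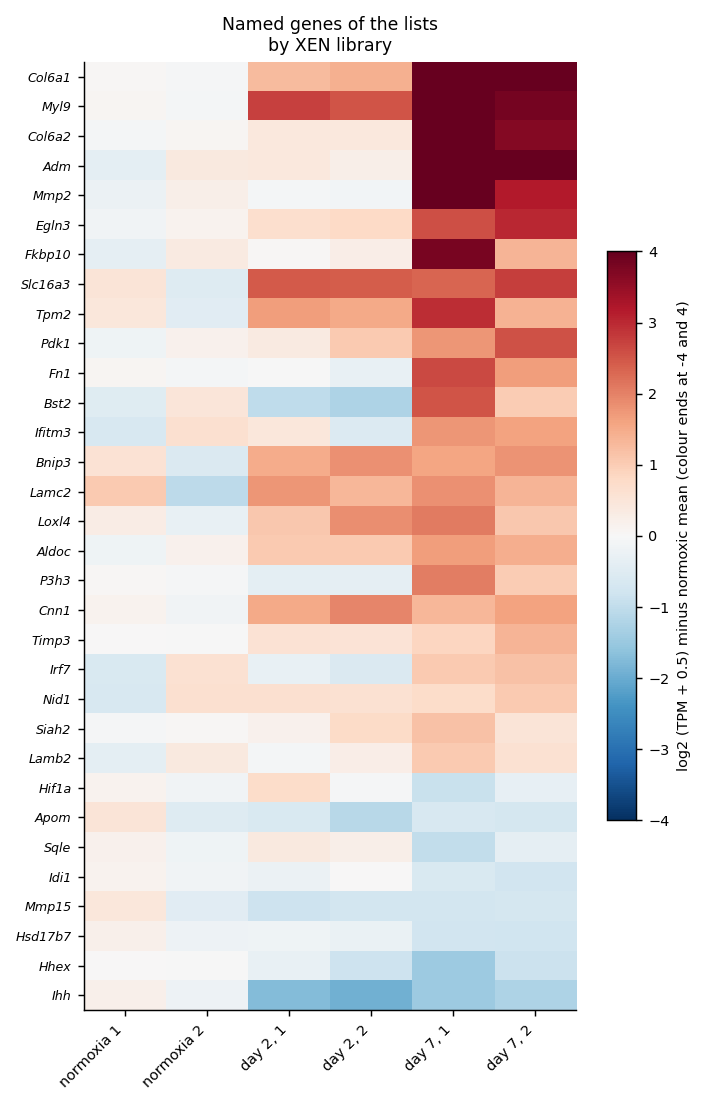
Named genes of the lists in each XEN library, as log2(TPM + 0.5) minus the mean of the normoxic libraries of that gene (red, higher; blue, lower; the colour ends at 4 in either direction). Fkbp10, Bst2 and Tpm2 are stronger in replicate 1 of day 7, Pdk1 in replicate 2, and Slc16a3, Bnip3, Cnn1 and Ihh stand at a like level on day 2 and day 7.

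Col6a1, Col6a2, Mmp2, Fn1 and Cd248 are also genes of fibroblasts, so markers of other cells were measured beside them. Of 14 fibroblast markers, 3 were in the table. Col1a2 stood at 0.0671 and 0.200 TPM in normoxia and 0.231 and 0.272 on day 7, and Pdgfrb at 0.123 and 0.104 against 0.419 and 0.2499. Both were too low for testing and near 0 in every library, with each day 7 value above each normoxic value. Pdpn, which endoderm also expresses, had 31.0 and 54.8 TPM in normoxia and 22.4 and 57.7 on day 7. The summed TPM of the 3 was 31.2 and 55.1 in normoxia and 23.0 and 58.2 on day 7. This sum was nearly all Pdpn, so it does not speak for Col1a2 and Pdgfrb. The other 11 markers were not analysed here. Elf5, the only trophoblast marker of 10 in the table, had at most 0.358 TPM, and Pou5f1, of pluripotent cells, had 0.842 and 1.27 TPM in normoxia and 1.12 and 1.29 on day 7. On TPM recomputed with exon length, the 5 pluripotency markers tested summed to 7.91 and 7.39 in normoxia against 7.93 and 9.74 on day 7. Their sum hides opposite courses: 1 of them, Utf1, had libraries apart and lower, and 1, Dppa5a, had them apart and higher. Dppa5a had 3.29 and 3.35 TPM in normoxia and 6.60 and 10.9 on day 7 (adjusted p = 0.378). Of 10 endothelial and blood markers, 4 were in the table, with exon-length sums of 98.6 and 60.9 TPM in normoxia and 84.2 and 56.1 on day 7. Their part in the DE genes was not tested.

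Day 7 was next compared with day 2 in the same fit, to ask which genes differed between prolonged and acute hypoxia. Both times share their normoxic libraries, so their fold changes over normoxia are given only side by side. The labels give no day of culture for normoxia. Length of hypoxia and time in culture can therefore not be told apart, here or in day 7 against normoxia. Between the times, 4 genes were DE, which is 0.0367% of those tested, and all 4 are among the 12. Col6a1 was higher on day 7 than on day 2 by 5.12 ± 0.31 on the log2 scale (adjusted p = 0.0101), Adm by 3.83 ± 0.30 (adjusted p = 0.0261), Egln3 by 2.07 ± 0.20 (adjusted p = 0.0870) and Col6a2 by 3.92 ± 0.41 (adjusted p = 0.0938). The same difference was 0.08 ± 0.23 for Mettl7b (adjusted p = 0.898) and 0.34 for Nrk, and the day 2 values over normoxia were 2.33 and 1.81. Over normoxia, Mmp2 stood at -0.08 (log2) on day 2 and at 3.97 on day 7. Col6a2 and Mmp2 passed the TPM limit only through day 7, so they could differ only by standing higher there. On day 2 itself 0 genes were DE against normoxia by limma, with 846 at an unadjusted p under 0.05.

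In ESCs, 93 of 12271 genes tested were DE on day 7 (0.758%), and in TSCs 48 of 12481 (0.385%). Of the 12 XEN genes, Mettl7b was DE in ESCs, where it had 0.350 and 0.579 TPM in normoxia and 2.86 and 2.35 on day 7 (log2 fold change 1.69 ± 0.24, adjusted p = 0.0315), and 0 were DE in TSCs. Egln3 had 4.18 and 5.18 TPM in normoxia and 28.3 and 14.6 on day 7 in ESCs (2.02, adjusted p = 0.120). Each cell type was normalized on its own, so the difference between cell types was not tested. Col6a1 in TSCs, which were grown on feeder cells, had 53.1 and 15.3 TPM already in normoxia. In ESCs it was too low for testing, at most 0.508 TPM in any library.

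**Figure D5:**
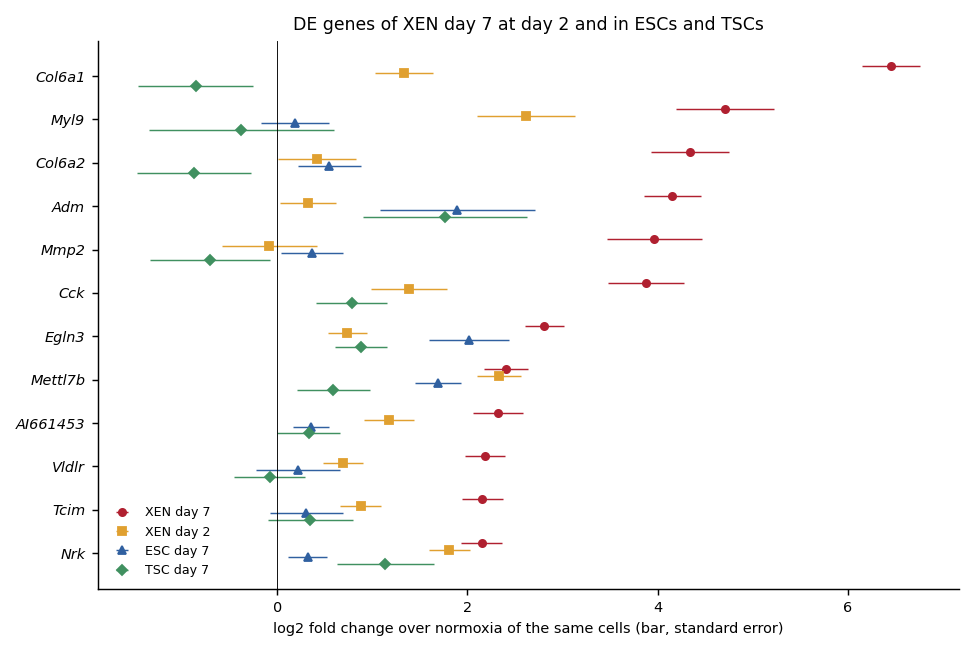
Log2 fold change over normoxia of the same cells, with its standard error as a bar, for the 12 DE genes on day 7 in XEN cells (circles), on day 2 in XEN cells (squares), and on day 7 in ESCs (triangles) and TSCs (diamonds). XEN day 2 and day 7 share the normoxic libraries; Mettl7b and Nrk have squares near their circles, and Col6a1 and Cck have no ESC point because they were not tested there.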

How the data were processed

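RNA was measured in XEN cells in normoxia and hypoxia, 2 libraries per condition. The authors trimmed reads with cutadapt 2.4, aligned them to mm10 with STAR 2.7.5a, counted them with featureCounts, filtered out genes of low expression and deposited TPM by gene and library, 1 table per cell type. TPM times gene span (GENCODE M21, GRCm38) fell within 0.05 of whole multiples for 98.7% to 98.9% of the XEN values, so the deposited TPM were scaled by gene span, introns included, and reads could be recovered. Levels between genes were therefore compared on TPM recomputed with exon length. Columns headed day 0 were taken as normoxia, and 0 columns were left unmapped.

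Log2(TPM + 0.5) of the 6 XEN libraries was analysed by limma 3.58.1 (R 4.3.3) with a mean-variance trend and Benjamini-Hochberg adjustment, and other steps ran in Python 3.11.15 with numpy 2.4.6, pandas 2.3.3 and matplotlib 3.10.9. The authors tested with edgeR, which was not run here. At the same thresholds for adjusted p and fold change they reported more DE genes in each cell type, in XEN cells on both days. The low counts given here are those of limma on TPM and do not show that few genes responded. The labels' replicate numbers were not part of the fit. Intervals for single values were not computed, and reads cover counting error only. On simulated reads with the same depths, the fit found 99% and 96.5% of 200 genes changed 4-fold and 90.5% and 30% of 200 changed 2-fold at dispersions of 0.01 and 0.05, with 11, 25, 10 and 12 false calls, and 5 and 0 calls with no gene changed. Within a simulation all genes had the same dispersion, so these rates need not hold for the data. In the data, Pdk1 changed 4.45-fold and Fn1 4.42-fold without passing in limma (adjusted p = 0.141 and 0.126).

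Named genes were every DE gene, with or without a replicate block, the 10 largest changes in each direction with libraries apart and an unadjusted p under 0.05, up to 3 genes per list and direction, XEN markers, oxygen-sensing genes and partners of DE genes. Genes shown with their values outside this rule, as markers of other cells, visceral endoderm genes and nearest misses, were chosen after their values were seen. The comparison, its lists and its members were chosen with earlier results of these data known. Alternatives were other pseudocounts, filters, scalings and thresholds, no trend, robust moderation, a replicate block, the 4 libraries alone, voom on recovered reads, exon-length TPM and each library left out, and voom with the block was chosen after seeing the data. Some genes that the rule for named genes picks are not reported here.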

Additional observations from a re-analysis of the deposited data

Results flagged for a closer look

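Day 7 and day 2 differed by test in 4 XEN genes. The log2 difference, day 7 minus day 2, was 5.12 for Col6a1, 3.92 for Col6a2, 3.83 for Adm and 2.07 for Egln3, all DE. Col6a2 passed the TPM limit only through day 7.

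Among the 118 named genes, to which the search was limited, there were 6 in which both libraries of 1 time point lay above and both of the other lay below the normoxic libraries, or the reverse, so the changes over normoxia ran in opposite directions. The difference between the times was tested in limma and did not pass for any of them. It was -2.68 for Utf1 (adjusted p = 0.218), 2.88 for Bst2, 1.89 for P3h3, 1.55 for Ltbp3, -1.15 for Id4 and -0.98 for Sqle (adjusted p = 0.373 for each of the last 5). With 2 libraries per condition, single libraries could not be tested for standing apart.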

How the results depend on the processing

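The 12 DE genes were higher in all 18 alternatives, but their number was not stable. It was 19 with median-ratio scaling, 19 with no mean-variance trend, 1 (Col6a1) in the 4 libraries alone and 6 with voom on recovered reads, and 10 to 17 under the other settings without a block. With each library left out it ran from 1 to 195, at 195 (100 higher, 95 lower) without replicate 2 of normoxia, 49 without replicate 2 of day 7, 19 without replicate 1 of normoxia, 4 (Col6a1, Col6a2, Egln3 and Myl9) without replicate 1 of day 7 and 1 (Col6a1) without either replicate of day 2. The 4 genes DE between day 7 and day 2 were 2 with no filter on low values, 2 with no trend, 2 with voom, 2 at an adjusted p of 0.05, and 0 to 83 with a library left out. Genes apart and over 1.5-fold ranged from 592 to 1019 higher and from 256 to 908 lower with a library left out, highest without replicate 2 of day 7 and replicate 2 of normoxia. Col6a1 alone kept its call in every alternative, with an adjusted p between 0.00115 and 0.0757, and the highest p of Mmp2 was 0.403. Median-ratio scaling moved the median of all genes from -0.03 to -0.0008.

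For the replicate numbers, the correlation of same-numbered deviations from the group means was 0.24 between normoxia and day 7, 0.11 between normoxia and day 2 and -0.11 between day 2 and day 7, so the numbers are not shown to pair libraries. With the replicate block, 43 genes were DE (37 higher, 6 lower), all 12 among them, and 4 between day 7 and day 2. The genes added by the block included Pdk1, Slc16a3, Slc2a1 and Aldoc of glycolysis (adjusted p = 0.0437, 0.0841, 0.0841 and 0.0972), and the 6 lower ones were Tcf23, Chchd10, Enpp5, Tfec, Lhx1 and Gas6 (adjusted p from 0.0326 for Tcf23 to 0.0952 for Gas6). With voom and the block together the counts were 73 and 9. Low normoxic read counts limit the size of the largest fold changes.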
